A study of Capsicum annuum with 78 samples.

Results

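HGO is the pepper gene TC.CA.PGAv.1.6.scaffold739.4, which carries the Arabidopsis symbol of homogentisate dioxygenase in a heatmap of the study. It was picked by its identifier, as 1 of the 35884 genes of the count table, and was followed through all 26 groups of libraries. The deposited table pairs no identifier with a name, so the symbol rests on that heatmap alone. The heatmap shows the top genes of NaCl, selected on these same libraries, so the levels of HGO in NaCl against mock are given as a description without a test. The contrasts of heat, cold and mannitol share the mock libraries with that selection.

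Homogentisate dioxygenase opens the aromatic ring of homogentisate, an intermediate of tyrosine breakdown, and the products are carried on to fumarate and acetoacetate. In plants homogentisate also gives the head group of tocopherols and plastoquinone, so the enzyme draws on a pool that these chloroplast lipids share. In humans, loss of the enzyme causes alkaptonuria.

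Leaves of Capsicum annuum cultivar CM334, 6 weeks old, were sampled under 4 stresses and in a mock control, with 3 biological replicates in each group. Heat plants were kept at 40 °C and cold plants at 10 °C, mannitol plants received 50 mL of 400 mM mannitol, and NaCl plants received 50 mL of 400 mM NaCl. Each stress was sampled after 3, 6, 12, 24 h and after 72 h, and the mock in addition at 0 h, which gives 78 libraries. All plants came from a growth room at 24 °C with 16 h of light and 8 h of dark, and a replicate pooled the third or the fourth leaves of 4 plants. A single cultivar limits what the groups stand for. Leaf identity was not checked against marker genes, since the identifiers carry no names.

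A library held between 4310398 and 7667094 counts. The median was lowest in heat (5077986), followed by cold (5811978), NaCl (6340577) and mannitol (6419477), against 6252996 in mock. HGO had between 60 and 429 counts in a library, and no library had 3 or fewer. Levels below are CPM (counts scaled to a common library size with TMM factors of 0.835 to 1.24). Genes were compared by edgeR's quasi-likelihood test over 19588 genes, with Benjamini-Hochberg adjustment. A gene was called differentially expressed (DEG) below an adjusted p-value of 0.05 where its log2 fold change was also beyond 1 in size. The biological coefficient of variation of HGO was 7.19%, against a median of 9.60% over the tested genes.

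Across the 26 groups the mean HGO level spanned a 5.90-fold range. Heat at 6 h was at the top with 68.8 ± 2.27 CPM, followed by heat at 3 h with 67.7 ± 7.29 CPM and NaCl at 24 h with 55.6 ± 1.13 CPM (SD, n = 3 each). Below them came NaCl at 6 h (47.7 ± 3.82 CPM), heat at 12 h (47.6 ± 6.54 CPM), NaCl at 72 h (41.4 ± 3.46 CPM) and mannitol at 72 h (39.2 ± 7.39 CPM). Warm, salt-watered and late mannitol-watered leaves thus held the upper end. The next groups were heat at 72 h (37.6 ± 3.84 CPM), NaCl at 12 h (35.9 ± 3.06 CPM), heat at 24 h (35.4 ± 1.14 CPM) and NaCl at 3 h (34.6 ± 4.43 CPM). They were followed by mannitol at 24, 6 and 12 h, with 32.3 ± 4.64, 32.2 ± 2.48 and 29.2 ± 2.69 CPM. Cold at 24 h and 72 h, with 27.5 ± 1.95 and 26.9 ± 2.57 CPM, had means above that of every mock group, and the ranges of cold at 72 h and mock at 6 h overlapped.

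The lower end of the order held the mock, early cold and mannitol at 3 h. Mock at 6 h had 22.7 ± 1.35 CPM, mannitol at 3 h 22.3 ± 1.64 CPM, mock at 12 h 17.8 ± 1.11 CPM, mock at 72 h 17.4 ± 0.921 CPM and mock at 0 h 17.1 ± 3.10 CPM. Cold at 12 h had 16.7 ± 1.03 CPM, mock at 3 h 16 ± 1.35 CPM, cold at 3 h 13.6 ± 1.84 CPM, cold at 6 h 13.4 ± 0.941 CPM and mock at 24 h 11.7 ± 0.842 CPM. Of the 25 pairs of neighbours in this order, 20 had overlapping ranges. The ranges separated only between heat at 3 h and NaCl at 24 h, between NaCl at 24 h and NaCl at 6 h, between mannitol at 3 h and mock at 12 h, between mock at 3 h and cold at 3 h, and between cold at 6 h and mock at 24 h.

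**Figure D1:**
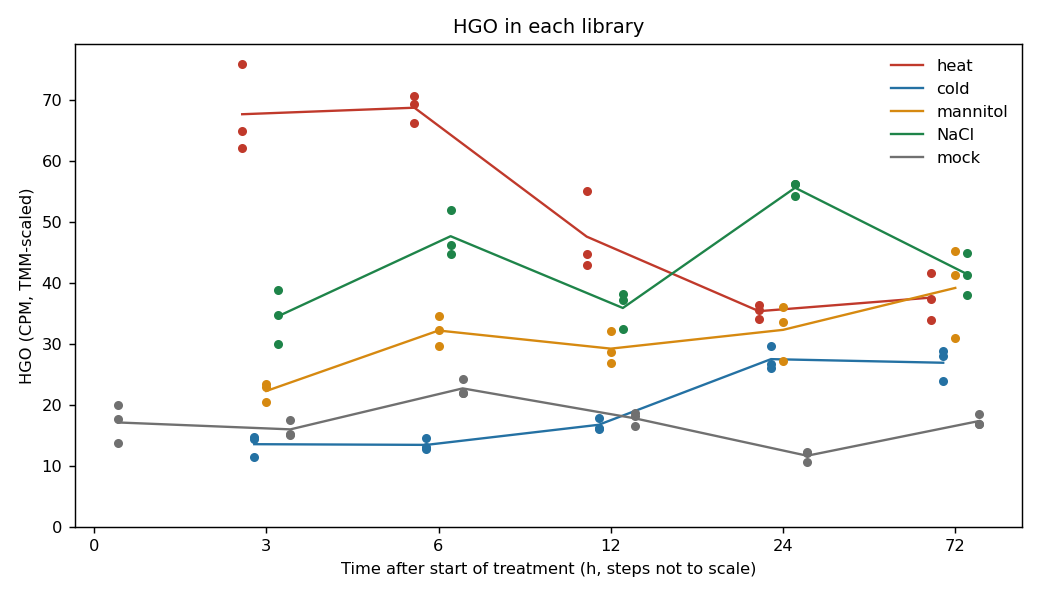
HGO level in TMM-scaled CPM in each of the 78 libraries (points) and the mean of each group of 3 (lines), against hours after treatment (steps not to scale), for heat, cold, mannitol, NaCl and mock. Heat at 3 and 6 h lies highest, with 62.1 to 75.9 CPM, and the mock stays between 10.7 and 24.3 CPM.

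The variance of log2 CPM over the 75 libraries from 3 h to 72 h was split into parts for treatment, hours, the interaction of both, and replicates. For HGO, treatment took 74.2% of the sum of squares, against a median of 31.4% over all tested genes, and 97.6% of the genes had a smaller share. Time point took 2.48% for HGO, against a median of 13.5%. The interaction took 20.9%, against a median of 28.1%, and the replicates took 2.42%, against a median of 14.7%. These shares include the NaCl libraries on which the gene was selected, and they are a description.

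HGO was higher in heat than in mock at all 5 time points. At 3 h the heat libraries had 65.0, 62.1 and 75.9 CPM, against 15.1, 15.3 and 17.5 CPM in mock, and at 6 h they had 66.3, 70.7 and 69.3 CPM, against 24.3, 21.9 and 22.0 CPM in mock. At 12 h heat had 44.8, 42.9 and 55.1 CPM, against 18.6, 16.5 and 18.2 CPM in mock. At 24 h heat had 34.1, 36.4 and 35.6 CPM, against 10.7, 12.1 and 12.2 CPM in mock, and at 72 h heat had 37.4, 33.9 and 41.6 CPM, against 18.4, 16.8 and 16.8 CPM in mock. No heat library overlapped with the mock of its time point. From 5583 (24 h) to 6310 (6 h) of the 19588 tested genes had heat wholly above the mock. In bulk leaf RNA, a change in the number of cells of a type and a change of RNA per cell cannot be told apart.

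The log2 fold change of HGO in heat was 2.08 at 3 h (SE 0.12, adjusted p = 4.55e-23), which is a 4.24-fold higher level, and 3.29% of the tested genes had a larger one. It was 1.6 at 6 h (SE 0.112, adjusted p = 5.58e-19), 1.42 at 12 h (SE 0.117, adjusted p = 4.82e-16) and 1.6 at 24 h (SE 0.127, adjusted p = 7.26e-17). The smallest value, 1.11, was at 72 h (SE 0.123, adjusted p = 1.05e-11), a 2.16-fold higher level. HGO was a higher DEG in 5 of 5 heat contrasts, and the share of tested genes called higher was 13%, 11.8%, 9.58%, 11.5% and 11.1% from 3 h to 72 h. Called higher at all 5 time points were 323 genes, or 1.65% of those tested. Averaged over the time points the log2 fold change was 1.56 (SE 0.0536, adjusted p = 3.14e-35), and 9.64% of the genes were called higher by the mean of heat.

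In cold the HGO level lay below the mock early and above it late. At 3 h the cold libraries had 11.4, 14.4 and 14.8 CPM, against 15.1, 15.3 and 17.5 CPM in mock, and at 6 h they had 13.1, 14.5 and 12.7 CPM, against 24.3, 21.9 and 22.0 CPM in mock. At 12 h cold had 17.9, 16.1 and 16.2 CPM, against 18.6, 16.5 and 18.2 CPM in mock. The ranges did not overlap at 3 h and 6 h, with cold lower, and overlapped at 12 h. How many of all genes had cold wholly below the mock was not computed. At 24 h cold had 26.7, 26.1 and 29.7 CPM, against 10.7, 12.1 and 12.2 CPM in mock, and at 72 h cold had 24.0, 28.0 and 28.8 CPM, against 18.4, 16.8 and 16.8 CPM in mock. Every cold library of these 2 late time points was above its mock. Of the 19588 tested genes, 6293 had cold wholly above the mock at 24 h and 6689 at 72 h.

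By the edgeR test HGO was lower in cold than in mock at 6 h, with a log2 fold change of -0.76 (SE 0.13, adjusted p = 2.13e-06), which is inside the fold limit of a DEG. Cold averaged 13.6 CPM at 3 h and 13.4 CPM at 6 h, and mock at 6 h had the highest mean of the mock groups (22.7 CPM). The values at 3 h, -0.24 (SE 0.139, adjusted p = 0.212), and at 12 h, -0.09 (SE 0.131, adjusted p = 0.608), did not pass. HGO was higher than in mock at 24 h by 1.24 (SE 0.129, adjusted p = 1.31e-12) and at 72 h by 0.63 (SE 0.124, adjusted p = 1.09e-05) on the log2 scale. It was a higher DEG in 1 of 5 cold contrasts, at 24 h, where 13.1% of the tested genes were called higher. At 3, 6, 12 and 72 h the shares of genes called higher were 3.09%, 8.47%, 12.8% and 16.2%. At least 1 call as a higher DEG in cold was made for 29.9% of the genes. The mean over the time points was 0.16 (SE 0.0586, adjusted p = 0.0162), where early and late values of opposite sign meet, and 6.15% of the genes were called higher by the mean of cold. With library totals in place of TMM the value at 72 h was 1.08 and HGO became a DEG there.

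In mannitol HGO was higher than in mock at all 5 time points by the adjusted p-value, and past the fold limit at the last 2. By the adjusted p-value alone 1134, 1331, 2341, 4117 and 3316 of the 19588 genes were higher from 3 h to 72 h. At 3 h the mannitol libraries had 23.5, 22.9 and 20.4 CPM, against 15.1, 15.3 and 17.5 CPM in mock, and at 6 h they had 34.7, 32.2 and 29.7 CPM, against 24.3, 21.9 and 22.0 CPM in mock. At 12 h mannitol had 32.2, 28.6 and 26.9 CPM, against 18.6, 16.5 and 18.2 CPM in mock. No range overlapped. At 24 h mannitol had 27.1, 36.1 and 33.6 CPM, against 10.7, 12.1 and 12.2 CPM in mock, and at 72 h it had 31.0, 41.3 and 45.3 CPM, against 18.4, 16.8 and 16.8 CPM in mock. The widest spread between replicates of HGO was in this last mannitol group.

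The log2 fold change in mannitol was 0.48 at 3 h (SE 0.127, adjusted p = 0.00651), 0.50 at 6 h (SE 0.116, adjusted p = 0.00144) and 0.72 at 12 h (SE 0.119, adjusted p = 2.22e-06). It was 1.47 at 24 h (SE 0.128, adjusted p = 6.02e-15) and 1.17 at 72 h (SE 0.122, adjusted p = 1.42e-11). HGO was thus a higher DEG in 2 of 5 mannitol contrasts, and the shares of genes called higher were 1.7%, 1.09%, 3.42%, 7.02% and 6.59% from 3 h to 72 h. As many calls or more were made for 4.84% of the genes. The mean over the time points was 0.87 (SE 0.0547, adjusted p = 4.15e-21), under the fold limit, and 3.12% of the genes were called higher by the mean of mannitol.

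Over heat, cold and mannitol together HGO was a higher DEG in 8 of 15 contrasts, and 334 genes, or 1.71% of those tested, had as many calls or more. By the adjusted p-value alone it was higher in 12 of them and lower in 1. In those 12, from 1134 (mannitol at 3 h) to 6407 (cold at 72 h) of the 19588 genes passed as higher. In cold at 6 h, where HGO was lower, 4079 genes passed as lower.

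In NaCl, the stress in which the study selected HGO, all 15 libraries were above the mock of their time point. At 3 h they had 34.7, 30.1 and 38.9 CPM, against 15.1, 15.3 and 17.5 CPM in mock, and at 6 h 46.3, 44.8 and 52 CPM, against 24.3, 21.9 and 22.0 CPM in mock. At 12 h NaCl had 37.2, 32.4 and 38.1 CPM, against 18.6, 16.5 and 18.2 CPM in mock. The 24 h libraries, with 56.3, 56.3 and 54.3 CPM against 10.7, 12.1 and 12.2 CPM in mock, stood farthest from their mock. At 72 h NaCl had 41.4, 38.0 and 44.9 CPM, against 18.4, 16.8 and 16.8 CPM in mock. From 3664 (72 h) to 6739 (24 h) of the 19588 tested genes had NaCl wholly above the mock.

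As a description, the log2 fold change in NaCl was 1.11 at 3 h (95% interval 0.87 to 1.36), 1.07 at 6 h (0.84 to 1.29), 1.01 at 12 h (0.77 to 1.24), 2.25 at 24 h (2.01 to 2.5) and 1.25 at 72 h (1.01 to 1.5). The mean over the time points was 1.34 (1.23 to 1.45). The fold limit was passed at 5 of 5 time points, which 59 genes, or 0.301%, also did, and nothing is read from it because NaCl chose the gene. The shares of genes called higher were 5.14%, 2.42%, 4.72%, 12.8% and 3.68% from 3 h to 72 h and 4.86% by the mean. The values at 6 h and 12 h stood close to the fold limit. Replicates were left out by number, from all groups of the 4 stresses at once or from all mock groups at once. Without stress replicate 3 the 6 h value was 0.987. The 12 h value was 0.957 without stress replicate 3, 0.974 without stress replicate 1 and 0.949 without mock replicate 2.

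Over all 4 stresses, the range of the stress libraries lay wholly above that of the mock in 17 of 20 contrasts and wholly below it in 2, both in cold. Over all tested genes and the 20 contrasts together, 25.3% of the pairs had the stress wholly above the mock. The 17 include every NaCl contrast, from which nothing is read because NaCl chose the gene. The share with the stress wholly below the mock was not computed, so nothing is read from the 2 cold contrasts.

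**Figure D2:**
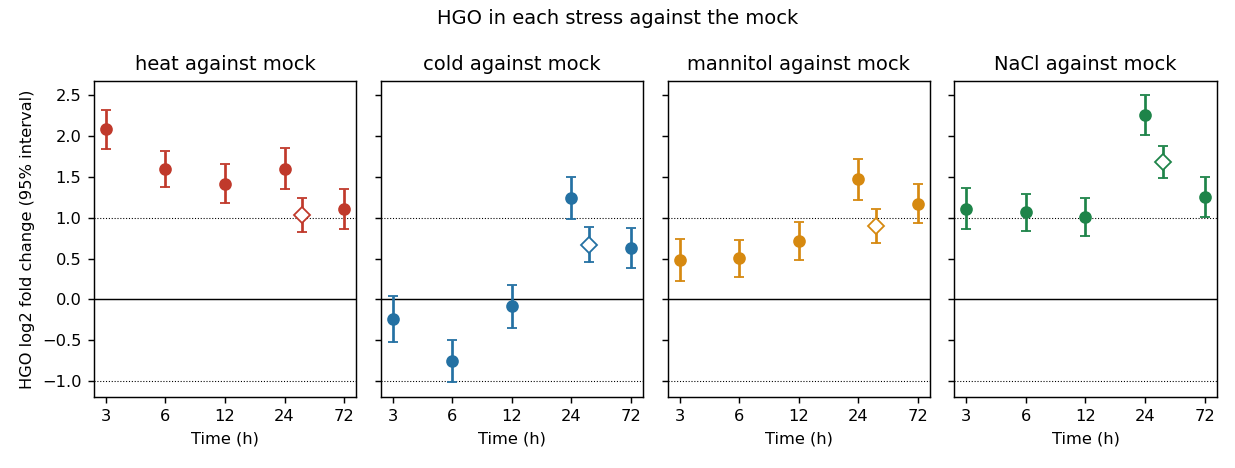
Log2 fold change of HGO over mock at each hour for heat, cold, mannitol and NaCl at 3 to 72 h, with 95% intervals from edgeR and the fold limit of a DEG as dotted lines. Open diamonds give the 24 h value against the mean of mock at 0 h and 72 h, which is 1.69 in NaCl, 1.03 in heat, 0.90 in mannitol and 0.67 in cold.

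The mock itself moved. Against the 3 libraries at 0 h, with 17.6, 19.9 and 13.8 CPM, HGO was higher in mock at 6 h by 0.40 (SE 0.127, adjusted p = 0.0079) and lower at 24 h, with a log2 fold change of -0.56 (SE 0.138, adjusted p = 0.00238). The values at 3, 12 and 72 h were -0.10, 0.05 and 0.02 and did not pass (adjusted p = 0.69, 0.795 and 0.956). HGO was a DEG in none of the 5 mock contrasts by edgeR or by DESeq2. From 3 h to 72 h, 3.43%, 15.3%, 14.5%, 3.52% and 6.03% of the genes were DEGs in edgeR. HGO passed the adjusted p-value alone in 2 of the 5, at 6 h and 24 h. By that limit 4045 of the 19588 genes were higher at 6 h and 1560 were lower at 24 h.

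Mock at 24 h was the lowest of the 26 groups, and it is the common denominator of the 4 contrasts at 24 h. It lay below the mean of mock at 0 h and 72 h by a log2 difference of -0.57 (SE 0.12, adjusted p = 0.000279), a contrast added after the values had been seen, which 18.4% of the genes passed. Set against the mean of mock at 0 h and 72 h, the log2 fold change at 24 h was 1.03 in heat (SE 0.103), 0.67 in cold (SE 0.106), 0.90 in mannitol (SE 0.105) and 1.69 in NaCl. HGO then stayed a DEG in heat and was no longer past the fold limit in cold and mannitol, which left 6 of 15 calls. The shares of genes called higher were 11.8% for cold, 10.4% for heat, 9.51% for NaCl and 3.7% for mannitol. The mean of cold over the time points became 0.04 (SE 0.0597, adjusted p = 0.54), while the means of heat and mannitol were 1.45 and 0.76. Whether the low mock at 24 h belongs to the hour of sampling was not tested.

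The effect of each stress was next compared between time points, by the difference to its effect at 3 h. In heat the effect on HGO was smaller at each later time point than at 3 h. The difference was -0.49 at 6 h (SE 0.164, adjusted p = 0.0294), -0.66 at 12 h (SE 0.168, adjusted p = 0.0021), -0.48 at 24 h (SE 0.176, adjusted p = 0.0291) and -0.97 at 72 h (SE 0.172, adjusted p = 4.49e-06). All 4 passed, where 28.7% of genes did over the 4 time points together and 42.4% at 72 h. Those at 6 h and 24 h sat near the threshold. At 6 h the call was lost without replicate 1, 2 or 3 of all stress groups (-0.471, -0.53 and -0.373). It was also lost there without replicate 1 or 2 of all mock groups (-0.406 and -0.488). At 24 h it was lost without replicate 1 or 3 of all stress groups (-0.406 and -0.325). The same held without replicate 2 or 3 of all mock groups (-0.414 and -0.493).

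In cold the effect moved the other way. Its difference to 3 h was 1.48 at 24 h (SE 0.19, adjusted p = 1.73e-09) and 0.87 at 72 h (SE 0.186, adjusted p = 5.7e-05), and -0.52 at 6 h (SE 0.191, adjusted p = 0.053) and 0.15 at 12 h (SE 0.191, adjusted p = 0.575), which did not pass. The value at 6 h sat at the threshold and passed at a similar size, -0.507 to -0.638, when replicate numbers were blocked, when cold was fitted apart, or under other filters and scalings, but not with DESeq2 (-0.55) or a robust fit (-0.517). Over the 4 time points together 39.1% of the genes passed, and 58.3% did at 72 h. In mannitol the difference was 0.99 at 24 h (SE 0.181, adjusted p = 3.91e-05) and 0.69 at 72 h (SE 0.177, adjusted p = 0.00429), against 9.42% of genes over the 4 time points and 13.3% at 72 h. The values at 6 h and 12 h, 0.02 and 0.24, did not pass (adjusted p = 0.981 and 0.558). The mannitol call at 72 h was lost without replicate 3 of all stress groups (0.496) or of all mock groups (0.588). In NaCl the differences were -0.05, -0.10, 1.14 and 0.14 at 6, 12, 24 and 72 h, given without a test, where 16.3% of the genes passed over the 4 time points and 18.9% at 72 h. All differences to 24 h include the low mock of that hour. All differences at 6 h include mock at 6 h, which had the highest mean of the mock groups (22.7 CPM).

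The stresses were then compared with each other, where the mock of the time point cancels. In all, 30 contrasts were made, 5 for each of 6 pairs, and p-values were adjusted over all genes within each. The 3 pairs with NaCl include the libraries on which the gene was selected, so their differences are given with 95% intervals as a description and without a test.

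Heat stood above cold at 5 of 5 time points, where 64.4% of gene contrasts passed over the time points together. The log2 difference was 2.32 at 3 h and 2.35 at 6 h, a 5.11-fold higher level, 1.5 at 12 h, 0.36 at 24 h (SE 0.116, adjusted p = 0.00557) and 0.48 at 72 h (SE 0.115, adjusted p = 0.000195). The difference was smallest at the last 2 time points, with heat libraries at 34.1 to 36.4 CPM and cold libraries at 26.1 to 29.7 CPM at 24 h. Its change between time points was not tested. By the mean over the time points the difference was 1.40 (SE 0.0537), and 80.2% of the genes passed.

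Heat stood above mannitol at 3, 6 and 12 h, by 1.6 (SE 0.114, adjusted p = 7.19e-19), 1.09 (SE 0.108, adjusted p = 4.76e-13) and 0.70 (SE 0.111, adjusted p = 3.88e-07). At 24 h and 72 h the difference was 0.13 (95% interval -0.10 to 0.36) and -0.06 (95% interval -0.29 to 0.16), and neither passed. Over the time points together 50.2% of gene contrasts passed, and 72.4% of the genes did by the mean, where HGO differed by 0.69 (SE 0.0501). Mannitol stood above cold at 3, 6, 12 and 72 h, by 0.72, 1.26, 0.80 and 0.55. At 24 h the difference was 0.23 (95% interval 0.00 to 0.46, adjusted p = 0.0886), with 27.1 to 36.1 CPM in mannitol and 26.1 to 29.7 CPM in cold. For this pair 50.2% of gene contrasts passed, and 68.7% of the genes by the mean, where HGO differed by 0.71 (SE 0.0549).

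The HGO level in NaCl was lower than in heat early and higher at 24 h. The log2 difference of NaCl to heat was -0.97 at 3 h (95% interval -1.19 to -0.75), -0.53 at 6 h (-0.74 to -0.32), -0.41 at 12 h (-0.63 to -0.19), 0.65 at 24 h (0.43 to 0.87) and 0.14 at 72 h (-0.08 to 0.37). The mean over the time points was -0.22 (SE 0.0488). Over all genes 48.2% of contrasts of this pair passed, and 72.3% of the genes by the mean, and nothing is read from these shares for HGO. The difference of NaCl to cold ran from 0.63 at 72 h to 1.82 at 6 h, with a mean of 1.18 (SE 0.0536). For that pair 52.9% of gene contrasts passed, and 68.7% of the genes by the mean.

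NaCl and mannitol were given at the same concentration and volume. The log2 difference of NaCl to mannitol was 0.63 at 3 h (95% interval 0.40 to 0.87), 0.57 at 6 h (0.35 to 0.78), 0.29 at 12 h (0.07 to 0.51), 0.78 at 24 h (0.56 to 1.01) and 0.08 at 72 h (-0.14 to 0.30). The mean was 0.47 (SE 0.05). For this pair 15.6% of gene contrasts passed over the time points together, and 34.7% of the genes by the mean, from which nothing is read for a gene that NaCl chose. Since a salt dissociates, solutions of equal molarity are not of equal osmotic strength.

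HGO was set beside 2 other genes to which the heatmaps of the study give a symbol, RD26 (scaffold213.1) and HSP21 (scaffold303.8). In Arabidopsis RD26 encodes a NAC transcription factor induced by dehydration and abscisic acid, and HSP21 a small heat shock protein of the chloroplast. They were also selected on these libraries, HSP21 as a top gene of heat and RD26 as one of mannitol and NaCl, so their differences to HGO in those stresses are given without a test. Gene lengths were not used, so differences and not levels are compared between genes.

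Averaged over the hours, the log2 fold change of RD26 lay between 1.63 (heat) and 2.04 (NaCl), with 1.85 in cold and 2.0 in mannitol. For HGO it lay between 0.16 (cold) and 1.56 (heat). The contrast was widest in cold at 6 h, where RD26 averaged 261 ± 10.3 CPM in cold and 36.1 ± 8.32 CPM in mock (SD, n = 3 each), while HGO was lower in cold than in mock. The effects of both genes were compared by permuting treatment within time points, in 8 two-sided tests with 100000 resamples, on log2 CPM with a prior count of 2. HGO minus RD26 was -1.70 in cold (permutation, adjusted p = 0.00024), and HGO had the smaller effect at 4 of 5 time points. In heat it was -0.07 (permutation, adjusted p = 0.596). In mannitol it was -1.12 and in NaCl -0.71, as a description. RD26 was low in mock at 24 h too, with 14.0 ± 1.69 CPM, against 31.0 to 44.6 CPM in the other mock groups.

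In heat HSP21 rose by 11.02 on the log2 scale on average. Its lowest heat group, at 12 h, averaged 1249 ± 179 CPM (SD, n = 3), against 0.616 to 4.5 CPM in the mock groups. HGO minus HSP21 was -9.20 in heat, as a description, and -1.96 in cold (permutation, adjusted p = 2.67e-05, with raw p = 1e-05, the smallest that the resamples can give). In mannitol it was 0.53 (permutation, adjusted p = 0.287) and in NaCl 0.78, and in each of them the sign held at 3 of 5 time points. HSP21 averaged 0.493 to 10.9 CPM in the mannitol groups. In the NaCl groups it averaged 0.457 to 6.61 CPM, except for 50.7 CPM at 24 h. HSP21 was lower than mock in mannitol at 3 h, with a log2 fold change of -3.17, and higher at 24 h, with 3.57, whereas HGO was higher at both. Both HSP21 values rest on low counts, with 6, 1 and 2 in mannitol at 3 h and 3, 6 and 4 in mock at 24 h.

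**Figure D3:**
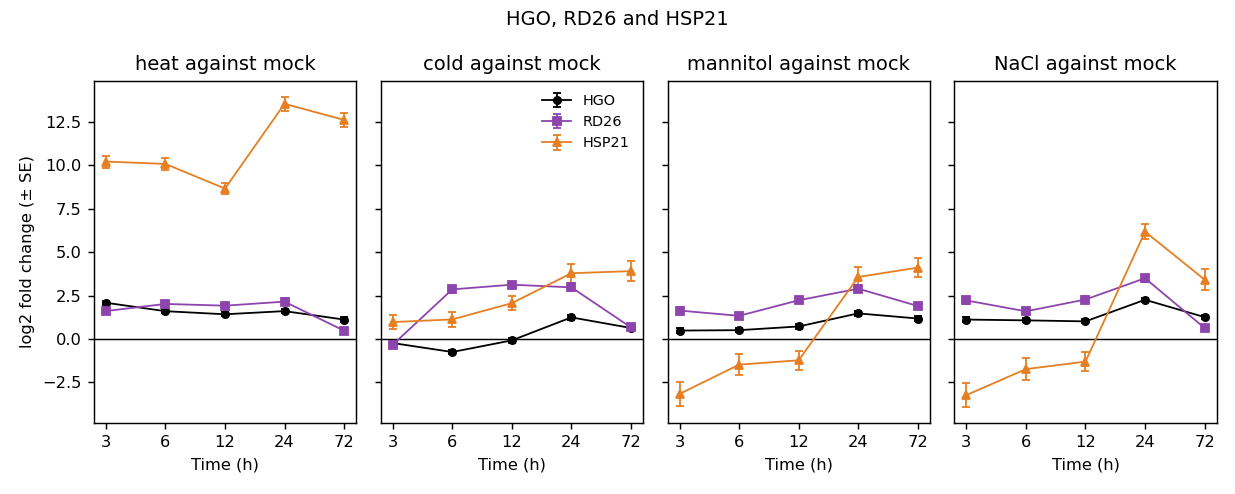
Log2 fold change over mock at each hour for HGO, RD26 and HSP21 in heat, cold, mannitol and NaCl, with bars of 1 SE from edgeR. RD26 lies above HGO in cold at 6, 12 and 24 h (2.85, 3.12 and 2.97), and HSP21 exceeds both in heat.

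The genes whose pattern was most like that of HGO were found by Pearson's correlation of mean log2 CPM over the 26 groups, among the other 19587 tested genes. The groups hold separate libraries but have the hours of sampling and the scaling in common, so the correlations are a description. Most alike were scaffold524.27 (r = 0.935, Spearman's rho = 0.915) and scaffold65.177 (r = 0.926, rho = 0.908), for which the files give no name. A correlation of at least 0.8 was reached by 296 genes and of at least 0.9 by 18. RD26 and HSP21 had r = 0.477 and 0.546.

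Both alike genes moved over a smaller range than HGO. The group means of scaffold524.27 spanned 1.62 on the log2 scale and those of scaffold65.177 0.92. The mean log2 fold changes of scaffold524.27 were 0.90 for heat, 0.64 for NaCl, 0.45 for mannitol and -0.03 for cold, and those of scaffold65.177 were 0.53, 0.36, 0.30 and -0.02 in the same order. Most opposite were scaffold843.27 (r = -0.923) and scaffold358.95 (r = -0.918), which spanned 4.55 and 4.36 on the log2 scale. The mean log2 fold changes of scaffold843.27 were -2.55 for heat, -2.17 for NaCl, -1.5 for mannitol and -0.60 for cold, and those of scaffold358.95 were -2.46, -1.41, -0.81 and 0.03. A correlation of -0.8 or lower was reached by 195 genes. Of the 20 most alike genes, 9 were also among the 20 by Spearman's correlation and 13 by Pearson's correlation over all 78 libraries.

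**Figure D4:**
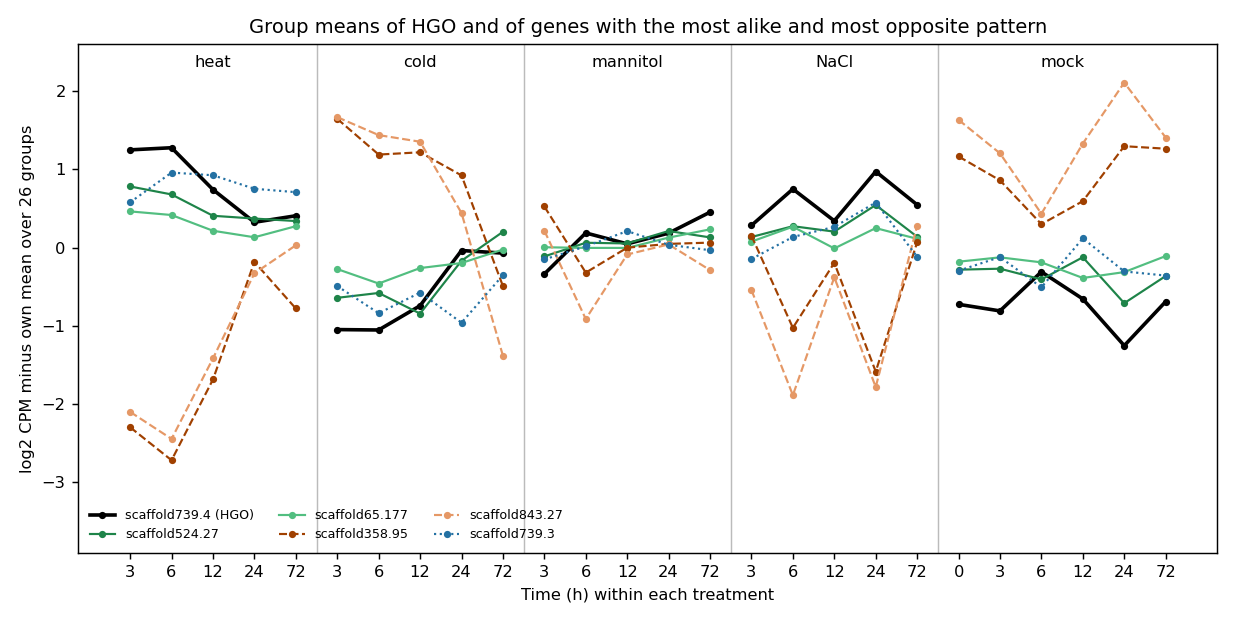
Mean log2 CPM, centred on each gene's mean over the 26 groups, for HGO, its most alike genes, its most opposite genes and scaffold739.3. The alike genes follow HGO over a smaller range, with r = 0.935 and 0.926, and the opposite genes run against it over a wider one.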

How the data were processed

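Leaf RNA of 78 libraries in 26 groups of 3 was sequenced from strand-specific libraries. Reads were trimmed with cutadapt 1.9.1 and checked with FastQC 0.11.5, aligned by Hisat to the CM334 genome and assigned to genes by featureCounts 1.5.2, per the study's methods and the submitters' processing notes. The authors deposited these raw counts for 35884 genes, with no scaling applied. Groups, hours and replicate numbers came from the sample labels. Of the identifiers, 0 matched the 48341 genes of the RefSeq name table of assembly UCD10Xv1.1, so a list of other tyrosine pathway genes was not made and no sequence or coordinate is given. Whether near-identical copies of HGO share its reads was not checked.

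The analysis ran in edgeR 4.0.16 (R 4.3.3, limma 3.58.1), and DESeq2 1.42.0 served as an alternative. Genes kept by filterByExpr (19588) entered 1 quasi-likelihood fit of all libraries with a group factor, TMM scaling, no block and 52 residual degrees of freedom. P-values were adjusted within each contrast by the Benjamini-Hochberg method. The same steps were also run on counts simulated from the means and spread of this fit. That run cannot show whether the model suits these data. P-values rest on biological replicates that each pool 4 plants. Reads had no molecular identifiers, so the precision of a count covers sampling of reads only.

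The gene, the comparison genes and the lists were chosen with earlier results of these data known. Named were HGO, the genes RD26 and HSP21 that carry symbols in the study's heatmaps, and the 2 genes of highest and the 2 of lowest correlation with HGO. Alternatives were DESeq2, a block for the replicate number, separate fits for the stresses, no filter, a filter of 1 CPM in 3 libraries and a robust fit. Others were RLE, upper-quartile or no scaling, and each replicate number left out of all stress groups or of all mock groups. The adjusted p-value alone and other correlations and prior counts were also used. Mock at 0 h and 72 h in place of mock at 24 h was added once values were known. GO terms, RT-PCR and read quality were not analysed here.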

Additional observations from a re-analysis of the deposited data

Results flagged for a closer look

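The effect of a stress on HGO differed between time points by the test of the difference itself in 8 comparisons with the effect at 3 h. In heat the log2 effect was changed by -0.486, -0.664, -0.482 and -0.97 at the later time points from 6 h to 72 h. In cold it was changed by 1.48 at 24 h and 0.868 at 72 h. In mannitol it was changed by 0.989 at 24 h and 0.694 at 72 h. Over all genes and the 4 later time points together, 28.7% of such comparisons passed in heat, 39.1% in cold and 9.42% in mannitol. The heat calls at 6 h and 24 h and the mannitol call at 72 h were lost when some replicate numbers were left out. Both of these heat calls were also lost under some of the filters and scalings. The values at 24 h share the low mock group of that hour, and the heat value at 6 h includes the mock group of highest mean. Groups of 3 libraries are too small for a check for single libraries that stand apart.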

How the results depend on the processing

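Over 60 values and 795 alternatives, 749 were labelled as unchanged. For fold changes and differences the label means that direction and side of the threshold were kept. The 60 values include those with NaCl, for which nothing is read from the label because NaCl chose the gene. The count of heat, cold and mannitol contrasts in which HGO was a DEG stayed at 8, except for 9 with library totals, 6 with mock at 0 h and 72 h in place of 24 h, and 13 with the adjusted p-value alone. The counts of 9 and 6 were also labelled as unchanged and are among the 749.

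The effect at 24 h minus 3 h in heat was -0.472 with DESeq2, -0.414 without a filter, -0.383 with library totals and -0.415 with upper-quartile scaling, and at 6 h minus 3 h it was -0.46 without a filter and -0.4 with library totals; none of these passed. In cold, 6 h minus 3 h passed with a fit per stress (-0.507), without a filter (-0.57), with a filter of 1 CPM (-0.56) and with RLE (-0.549), library totals (-0.558) or upper-quartile scaling (-0.638). NaCl at 12 h was 0.99 with DESeq2, 0.99 with RLE and 0.999 with upper-quartile scaling. With library totals cold at 72 h was 1.08, and 3 uncalled values turned: cold at 12 h minus 3 h (-0.0988), NaCl at 6 h minus 3 h (0.0269) and mock at 72 h (-0.0471). Library totals moved the median log2 fold change of all genes by -0.346 to 0.448, and upper-quartile scaling by -0.144 to 0.0573. Against mock at 0 h and 72 h, cold at 24 h was 0.672 and mannitol at 24 h 0.902. The causes of these changes were not tested.

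Each replicate number was left out of all stress groups, or of all mock groups, which gave a range for each value. In heat it was -0.579 to -0.373 at 6 h minus 3 h and -0.557 to -0.325 at 24 h minus 3 h. In cold it was -0.648 to -0.434 at 6 h minus 3 h and -0.00977 to 0.249 at 12 h minus 3 h. In mannitol it was -0.0672 to 0.113 at 6 h minus 3 h and 0.496 to 0.853 at 72 h minus 3 h. In NaCl it was 0.987 to 1.10 at 6 h, 0.949 to 1.08 at 12 h and -0.165 to 0.0237 at 6 h minus 3 h. For mock at 3, 12 and 72 h it was -0.277 to 0.059, -0.0659 to 0.24 and -0.0922 to 0.15.

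Replicate numbers did not pair the libraries: same-numbered stress and mock libraries correlated at -0.282 to 0.291, 5 of 60 over 0.1, and 23 of 60 correlated best with their own number. With the replicate number as a block cold at 6 h minus 3 h passed (-0.517), and no other call changed. A fit per stress gives no value between stresses. With 60 to 429 counts of HGO per library, depth did not keep it from being measured in any group.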

Other observations

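Of the 11 other identifiers on the scaffold that carries HGO, 5 passed the filter on low counts and 5 had no count in any library. The order of genes on the scaffold was not used. Among the tested ones scaffold739.3, named after its values had been seen, was a higher DEG in 3 of the 20 contrasts with mock, all in heat, with log2 fold changes of 1.48 at 6 h, 1.08 at 24 h and 1.08 at 72 h. Its correlation with HGO over the 26 groups was 0.733, at rank 730 of 19587. In cold its mean log2 fold change was -0.42, in mannitol 0.26 and in NaCl 0.38. The share of all genes with as many calls was not computed for scaffold739.3 or for the other tested ones. Nothing is read from these counts. Of the other tested ones, scaffold739.8 was a higher DEG in 2 contrasts and a lower one in 1 (r = -0.213 with HGO). Never called higher were scaffold739.6 (lower in 2, r = -0.538), scaffold739.7 (lower in 1, r = -0.641) and scaffold739.12 (lower in 1, r = 0.423).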
